A study of Arabidopsis thaliana with 18 samples.

Results

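The exocyst is a complex that tethers secretory vesicles to the plasma membrane before they fuse. The set described here holds 10 Arabidopsis thaliana genes for its core subunits, SEC10, SEC3A, SEC5A, SEC5B, SEC6, SEC8, SEC15A, SEC15B, EXO84B and EXO70A1, of 32436 genes and joined gene loci counted. SEC10 was chosen by the read counts of its introns, 1 of which was joined less often in the prl1-2 mutant than in the wild type Col-0, and the other subunits were added by name. SEC10 in prl1-2 against Col-0 is therefore given as a description, with no test result. The genes carry 170 annotated splice junctions, 25 unannotated ones and 185 exon bins. They drew 39608 gene reads over 18 libraries.

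The libraries are PacBio Iso-Seq libraries, full-length cDNA read as long single molecules, from total RNA of whole seedlings. There were 6 genotypes with 3 biological replicates each, and the labels call the replicates independent. Col-0 was the reference. The mutants were xct-1 and xct-2, alleles of XCT (XAP5 CIRCADIAN TIMEKEEPER, a nuclear protein linked to splicing), and prl1-2, an allele of PRL1 (PLEIOTROPIC REGULATORY LOCUS 1, a WD-repeat protein of the spliceosome-associated MAC complex). A line labelled xct-2 XCT::XCT carried XCT in the xct-2 background, and a line labelled xct-1 XCT::SpXAP5 carried SpXAP5 in the xct-1 background. A header of the authors' tables names the former as XCT-YFP-HA, a tagged form. What drives each transgene and how many independent lines lie behind it are not stated in the labels. All plants grew on MS medium in constant light of 55 µmol m-2 s-1 at 22 °C after 3 days of stratification. Seedlings were taken on day 11, about 60 mg every 2 h over 24 h, and pooled, so each library averages over a day and over all organs. Another label gives the seedlings as 10 days old.

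Depth ran from 459150 gene reads in prl1-2 replicate 1 to 1046273 in xct-2 XCT::XCT replicate 3. Junction reads divided by gene reads were lowest at 7.05 (xct-1 replicate 2) and highest at 11.5 (Col-0 replicate 3). This ratio can rise with the length of the molecules read and with the share of reads from genes with many introns. Read length itself was not measured here. PRL1 had 0 reads in all 3 prl1-2 libraries and 10 to 33 in Col-0. The first 3 exon bins of XCT had 0 reads in all 3 xct-2 libraries, whereas xct-2 XCT::XCT held 284 to 654 XCT reads per library against 2 to 16 in Col-0. All 3 leaf markers and all 4 root markers had reads, and the 3 floral markers were at 0. The 2 seed storage markers both had reads in xct-2 XCT::XCT, at most 23.2 CPM summed in a library. In prl1-2, 1 of them had reads, at most 1.10 CPM, and both were at 0 in the other genotypes.

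In yeast and animals the exocyst is built of rod-shaped subunits, of which Sec3 and Exo70 bind phosphoinositides of the target membrane and Sec15 binds a Rab GTPase on the vesicle. In plants the complex serves polarized growth of pollen tubes and root hairs, deposition of wall material and growth of the cell plate, and the EXO70 family has expanded.

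Every member was read in every genotype. Per kilobase of exon, SEC8 was highest at 226 CPM (gene reads scaled to library size) per kb, averaged over the 18 libraries, followed by SEC10 at 136, SEC5A at 117 and SEC6 at 104. EXO84B stood at 70.4, SEC15B at 67.1, SEC3A at 49.3, EXO70A1 at 47.8, SEC5B at 36.7 and SEC15A at 20.3. Of the paralogs, SEC5A was thus read more than SEC5B and SEC15B more than SEC15A, on the per-length scale. EXO70A1, needed for stigma receptivity and Casparian strip placement, had the steadiest level: its highest library was 1.48 times its lowest. For SEC5A that ratio was 10.3. Over the 18 libraries SEC8 ran from 189 to 1727 CPM, SEC5A from 78.4 to 809, SEC6 from 115 to 495, EXO84B from 95 to 347 and SEC3A from 59.1 to 295. SEC15B ran from 74.7 to 267, SEC5B from 35.5 to 243, EXO70A1 from 89.9 to 133 and SEC15A from 23.4 to 83.8.

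The level of SEC10 was 269, 383 and 606 CPM in the Col-0 libraries, from lowest to highest, with a mean of 420 ± 171 (SD, n = 3). The lowest mean was that of xct-2, 325 ± 146, followed by xct-1 with 357 ± 173 and prl1-2 with 390 ± 153. Above Col-0 lay xct-2 XCT::XCT with 439 ± 100.5 and, highest, xct-1 XCT::SpXAP5 with 498 ± 47.0. Neighbours in this order lay no further apart than the larger of their SDs. Each genotype overlapped Col-0, while the lowest xct-1 XCT::SpXAP5 library, at 468, lay just above the highest xct-1 library, at 466, and above all of xct-2. Single libraries stood apart within genotypes. Col-0 replicate 3 was the highest library for 7 of 10 members, and xct-1 replicate 2 was the lowest for 6. These are the libraries with the most and the fewest junction reads per gene read. All genes of a library share its depth and any difference in read length. Across the 18 libraries, Pearson's r between a gene's CPM and junction reads per gene read ran from 0.485 for EXO70A1 and 0.853 for SEC3A to 0.972 for SEC5A and 0.986 for SEC8.

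**Figure D1:**
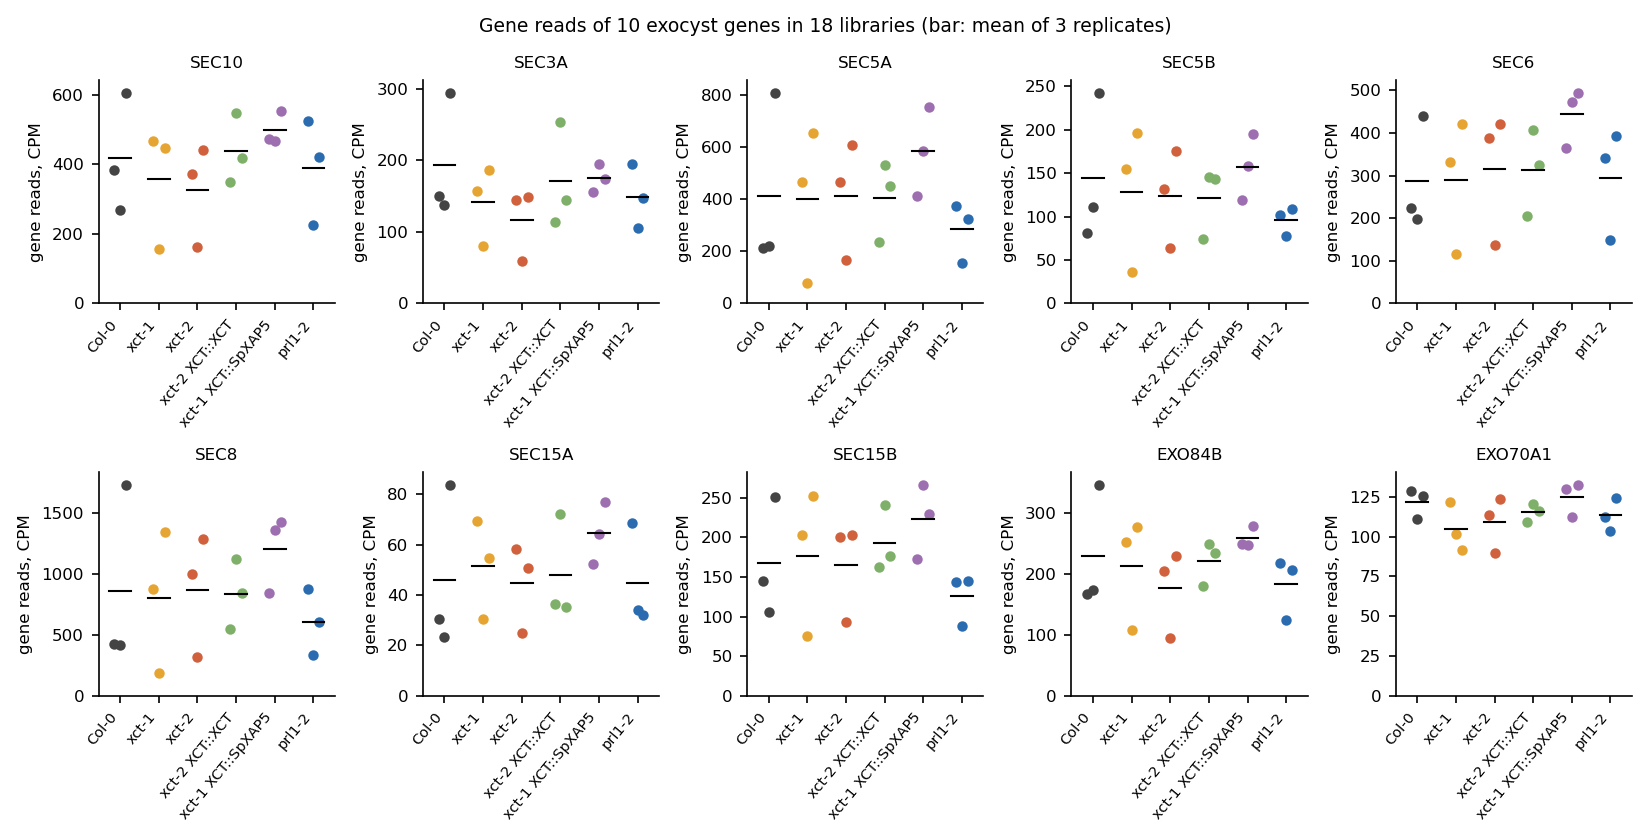
Gene reads of the 10 exocyst genes in CPM (linear axis from 0), with each point a library, the 6 genotypes side by side and the bar the mean of 3 replicates. SEC8 and SEC5A spread widely within Col-0, xct-1 and xct-2, and no gene's difference from Col-0 passed the test.

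No member changed in gene level by edgeR's quasi-likelihood test at an adjusted p under 0.05. In xct-2 against Col-0 the count was 0 of 10 members against 0.0555% of 10810 genes tested, and in xct-1 0 of 10 against 0%. In prl1-2 it was 0 of the 9 members other than SEC10 against 0.241%. In xct-2 XCT::XCT against Col-0 it was 0 of 10 against 0.0185%, and in xct-1 XCT::SpXAP5 against Col-0 0 of 10 against 0%. Against their own mutants the counts were 0 of 10 for xct-2 XCT::XCT, beside 0.037% of all genes, and 0 of 10 for xct-1 XCT::SpXAP5, beside 0%. The count of members with an unadjusted p under 0.05 was also 0 in each comparison. The lowest adjusted p was 0.618, for SEC6 in xct-1 XCT::SpXAP5 against Col-0. The median log2 change of the 10 members was −0.09 in xct-2, beside −0.03 over all genes, −0.35 in prl1-2 beside −0.05, and 0.33 in xct-1 XCT::SpXAP5 beside −0.17. In bulk seedlings, fewer cells of a type and less RNA per cell cannot be told apart in such levels. The largest change in xct-2 was that of SEC3A, whose level was 117 ± 50.4 CPM in xct-2 and 194 ± 87.4 in Col-0, a log2 change of −0.73 (SE 0.46, adjusted p = 1, edgeR). With the replicate number as a block and junction reads per gene read as a covariate, SEC3A passed the test in xct-2 (1 of 10 members), where 7.31% of all genes passed in that fit.

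Splicing was read as junction usage, the reads that join a junction per 100 gene reads in the same library. Of the members' junctions, 154 in 9 genes had enough reads to be tested, 129 annotated and 25 unannotated. SEC15B had no tested junction. Its annotated intron of 51 bases (TAIR10, chr4:1039141-1039191) was joined by 0 of 2499 gene reads, which allows a share of up to 0.12%, for counting error only, while 2487 reads covered the bins beside it. SEC15B was read as unspliced over that stretch in all 18 libraries.

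SEC10 (AT5G12370, chr5:4002775-4008804, minus strand) encodes the subunit from which the set was started. The intron numbered J039, 68 bases at chr5:4005204-4005271, had a usage of 104, 104 and 106 in the 3 Col-0 libraries and of 81.5, 90.6 and 89.1 in the 3 prl1-2 libraries. The means were 104.4 ± 1.18 and 87.1 ± 4.88, a difference of −17.4 reads per 100 gene reads. The 15 libraries of the other genotypes lay between 102 and 112, all above every prl1-2 library. Usage above 100 means that more reads joined the intron than were counted for the gene. In SEC10 this held for 79.1% of junction values, against 4.26% over all junctions and at most 11.1% in any other member. The locus has been described as a tandem pair of near-identical copies shown as a single gene, so its counts are uncertain, and the part of this in the excess was not tested.

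A measure within the junctions avoids the gene count. Against J031, the most-read SEC10 junction, J039 held 84.7 ± 3.10% in prl1-2 and 97.2 ± 0.87% in Col-0 (SD, n = 3 each). The xct-1 mutant stood at 97.2 ± 1.05%, xct-2 at 96.8 ± 2.13%, and the lines xct-2 XCT::XCT and xct-1 XCT::SpXAP5 at 98.1 ± 0.54% and 96.6 ± 0.76%. The difference between prl1-2 and Col-0 was then −12.4 percentage points rather than −17.4. On this scale J033 stood at 99.2 ± 0.89% in Col-0 and 93.3 ± 0.87% in prl1-2, and J035 at 96.5 ± 1.99% and 91.9 ± 1.53%. J048 stood at 96.5 ± 1.19% and 94.8 ± 2.26%, and J052 at 95.3 ± 1.44% and 95.3 ± 1.67%, and for both the libraries of the 2 genotypes overlapped. These 5 junctions were named because the fit over all junctions called them in this same comparison, so the choice lends no support. Of the 5, J039 stood furthest below J031 in prl1-2. The other tested annotated junctions were J043 (93.6 ± 1.72% in Col-0, 91.3 ± 0.44% in prl1-2), J054 (87.4 ± 0.80%, 85.2 ± 4.11%) and J037 (94.9 ± 0.93%, 95.7 ± 2.83%). In the 15 libraries outside prl1-2, SEC10's J033, J035, J039 and J048 held at least as many reads as the gene. The count of unjoined reads was therefore set to 0 there, which does not show that every read was joined.

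**Figure D2:**
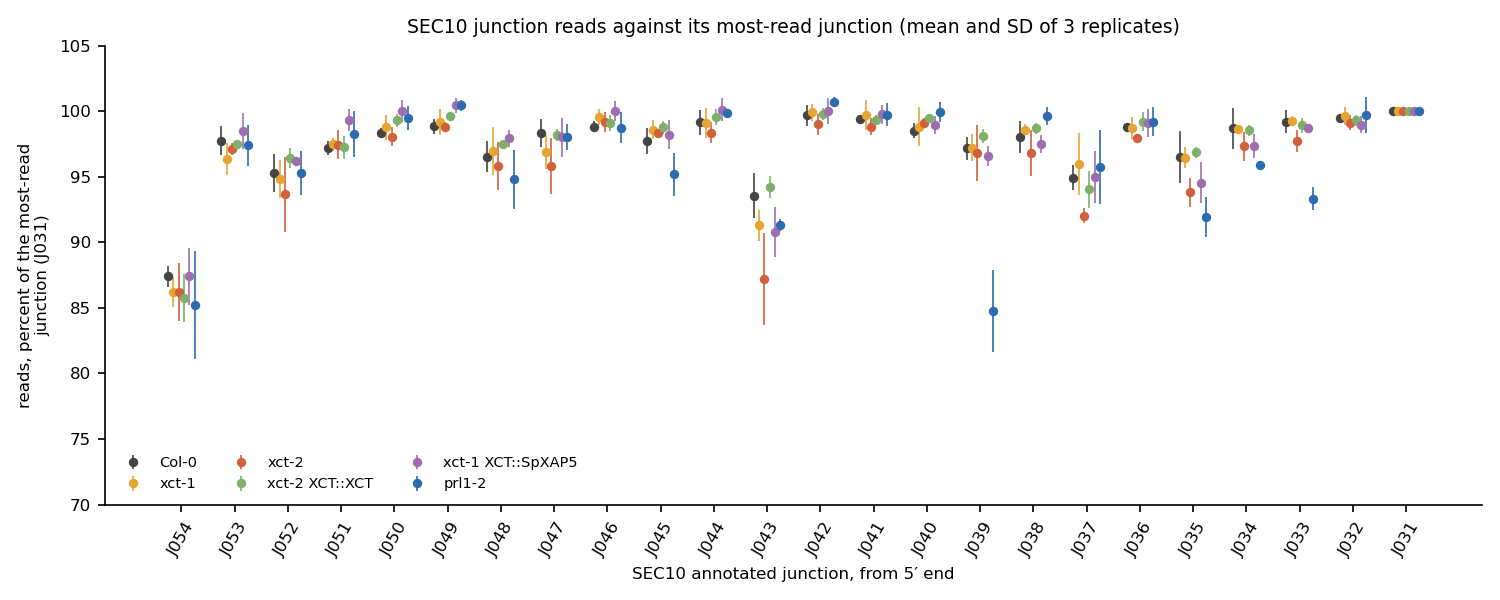
Reads of annotated SEC10 junctions as a percent of its most-read junction J031, from the 5′ to the 3′ end of the gene, with points the means and bars the SD of 3 replicates for 6 genotypes. The axis does not start at 0. J039 in prl1-2, at 84.7%, stands below the other genotypes at 96.6% to 98.1%.

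In prl1-2, 17 of the 140 tested junctions of the members without SEC10 passed the test against Col-0, 16 lower and 1 higher. That is 12.1%, while 9.74% of all 50590 tested junctions passed and 9.56% were lower, so the share is near the background of this mutant. Of the 140, 9 reached the minimum of 20 reads on each side only through their prl1-2 reads, 5 of the 17 calls among them (EXO70A1 J021, J022 and J025, and EXO84B J011 and J012), so the counts describe and do not support a difference for these. Usage leaned lower in 116 of the 140 (82.9%), beside 80.0% of all junctions, and the median log2 change was −0.60 beside −0.81 over all. At an unadjusted p under 0.05, 39 passed. By gene the calls were 4 of 7 junctions in EXO70A1, 3 of 6 in EXO84B, 6 of 39 in SEC8, 3 of 22 in SEC5A and 1 of 19 in SEC3A, with 0 of 19 in SEC5B, 0 of 27 in SEC6 and 0 of 1 in SEC15A. Of the 17, 6 passed with DESeq2, and 0 passed when the gene count was used as an offset instead of a second count, where 0.239% of all junctions passed. Without each library in turn, 5 of the 17 passed every time. The test weighs reads that join the junction against those that do not. A loss from 100 to 90 per 100 gene reads is therefore a large change in the reads left unjoined and a small one in the joined reads.

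EXO70A1 (AT5G03540, chr5:889566-894167, plus strand) encodes an EXO70 subunit that contacts the plasma membrane. Its intron J016, 120 bases at chr5:889984-890103, had a usage of 90.6, 93.7 and 88 in Col-0 and 68.6, 79.8 and 69.1 in prl1-2. The groups did not overlap, and the fall from 90.8 ± 2.84 to 72.5 ± 6.32 gave a log2 change of −1.88 (SE 0.44, adjusted p = 0.0098, edgeR). This intron is kept in an annotated isoform of the gene, and its bin E003 was covered by 3.60, 2.11 and 6.67 per 100 gene reads in Col-0 and by 29.4, 18.1 and 24.7 in prl1-2. The intron was thus read more often in every prl1-2 library, with means of 4.12 ± 2.33 and 24.1 ± 5.69 (log2 change 2.89, SE 0.56, adjusted p = 0.0397, edgeR). The bin's call was lost when any of the 6 libraries was left out, with adjusted p from 0.0568 to 0.325, and the junction's call was lost without prl1-2 replicate 3 (adjusted p = 0.0533).

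J022 of EXO70A1, 611 bases at chr5:891935-892545, was joined in every gene read of Col-0, with a usage of 100 in all 3 libraries. In prl1-2 the usage was 80.4, 90.4 and 87.6, with a mean of 86.1 ± 5.18. J022 reached the minimum of reads on each side only through its prl1-2 reads, so its call is no support for a difference. Of the reads covering the exons beside it, 0 of 309 lacked the junction in Col-0 and 30 of 241 did in prl1-2. J021 fell from 99.6 to 94.9 and J025 from 99.3 to 93.9. In all 7 tested EXO70A1 junctions the usage leaned lower in prl1-2, and the mean over them was 97.9 in Col-0 and 90.9 in prl1-2. Among the 7, J021, J022, J023 and J025 were tested only through their prl1-2 reads. The lean and the mean thus followed in part from the filter and only describe. The gene's level differed by a log2 change of −0.10 (SE 0.28).

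EXO84B (AT5G49830, chr5:20250486-20255039, minus strand) encodes the EXO84 paralog known for its part in cell plate formation. J011, 86 bases at chr5:20250960-20251045, had a usage of 100 in each Col-0 library. In prl1-2 the usage was 88.9, 92.0 and 90.1 (mean 90.3 ± 1.59). Reads on both flanks without the junction were 0 of 536 in Col-0 and 35 of 372 in prl1-2. J012, 95 bases at chr5:20251183-20251277, fell from 99.6 ± 0.35 to 91.4 ± 3.58, with prl1-2 libraries at 87.9, 91.2 and 95. Both J011 and J012 reached the minimum of reads on each side only through their prl1-2 reads. Their lower usage thus followed in part from the filter, and their calls are no support for a difference. J014 fell from 99.4 to 95.6 (log2 change −2.86, SE 0.77, adjusted p = 0.0211, edgeR). All 3 of these junctions lie in the 3′ part of the gene. All 6 tested EXO84B junctions leaned lower in prl1-2, with J011 and J012, tested only through prl1-2, among them. In the xct mutants and the transgenic lines J011 stood at 97.2 to 100 in single libraries, without a call.

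**Figure D3:**
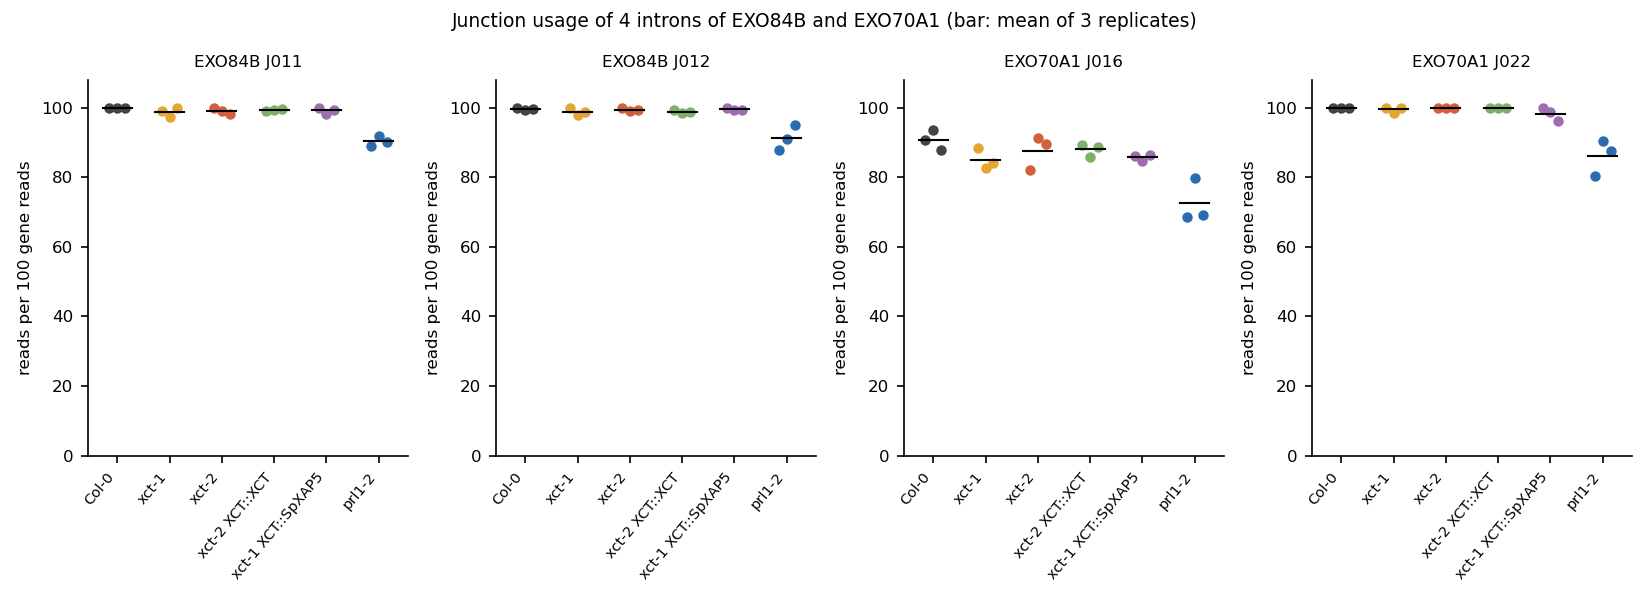
Usage of 4 introns of EXO84B and EXO70A1 in reads per 100 gene reads (axis from 0), with each point a library and the bar the mean of 3 replicates. The 3 prl1-2 libraries lie below every other library in each panel, with the lowest mean, 72.5, at EXO70A1 J016. EXO84B J011 and J012 and EXO70A1 J022 reached the minimum of reads on each side only through their prl1-2 reads.

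SEC3A (AT1G47550, chr1:17457122-17464386, plus strand) encodes a SEC3 subunit that marks sites of secretion in pollen tubes. Its long intron J029, 790 bases at chr1:17457346-17458135, had a usage of 94.5, 92.3 and 93.2 in Col-0 and of 77.3, 89.5 and 78.3 in prl1-2. The fall from 93.3 ± 1.09 to 81.7 ± 6.78 passed the test (log2 change −1.63, SE 0.46, adjusted p = 0.0265, edgeR), and prl1-2 replicate 2 was closest to Col-0. Without prl1-2 replicate 3 the adjusted p was 0.125, and without replicate 1 it was 0.105.

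SEC8 (AT3G10380, chr3:3219523-3228933, minus strand), a core subunit needed for pollen germination, had 6 calls, each of a few reads per 100. J041 (chr3:3223859-3223935) had a usage of 99.6, 98 and 99 in Col-0 and of 95.7, 95.7 and 95.6 in prl1-2, a fall from 98.9 ± 0.79 to 95.6 ± 0.08 (log2 change −2.08, SE 0.43, adjusted p = 0.00515, edgeR). J044 (chr3:3224878-3224962) fell from 98.6 ± 1.00 to 94.8 ± 0.72 (log2 change −2.12, SE 0.45, adjusted p = 0.00617). J028 fell from 95.9 to 90.6 (adjusted p = 0.0203), J030 from 99.3 to 96.8 (adjusted p = 0.0102) and J038 from 99.1 to 97.2 (adjusted p = 0.0253). The groups did not overlap in any of these 5. SEC8 was the deepest member, with 11701 gene reads, and differences as small as −1.91 and up to −5.35 reads per 100 were called there.

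SEC5A (AT1G76850, chr1:28847951-28854499, plus strand), which shares its function with SEC5B, showed falls at J033 from 99.5 to 97.4 (adjusted p = 0.0187) and at J037 from 99.1 to 96.2 (adjusted p = 0.0178, edgeR). It also held the single member junction called higher in prl1-2, the unannotated N043, whose 5′ splice site lies 113 bases downstream of that of J036. N043 stood at 2.18, 1.07 and 2.28 per 100 gene reads in Col-0 and at 5.92, 5.71 and 5.53 in prl1-2, or 1.84 ± 0.67 and 5.72 ± 0.19 (log2 change 1.61, SE 0.44, adjusted p = 0.0222). These are 18 and 32 reads in all. Its usage in xct-2 XCT::XCT reached 4.47, without a call. The prl1-2 call of N043 was lost with DESeq2, with the gene count as an offset and with only the libraries of the 2 groups. It was also lost without Col-0 replicate 1 or 2 and without prl1-2 replicate 1 or 3.

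The remaining tested members had no call in prl1-2. In SEC6 (AT1G71820), whose protein binds the Sec1/Munc18 protein KEULE, J047 came closest, with 99.0 ± 0.71 in Col-0 and 96.5 ± 0.93 in prl1-2 (adjusted p = 0.0605, edgeR). In SEC5B (AT1G21170) J029 stood at 96.3 ± 2.78 and 90.3 ± 1.81 (adjusted p = 0.0841), and J030, with the widest gap in that gene, at 85.9 ± 0.70 and 76.2 ± 10.04 (adjusted p = 0.293). In SEC15A (AT3G56640) the single tested intron J003 had a usage of 103, 95 and 86 in Col-0 and of 90.3, 80.6 and 76 in prl1-2, from 20 to 50 gene reads a library (adjusted p = 0.339), and the groups overlapped. In the authors' deposited table at an adjusted p under 0.05, prl1-2 against Col-0 held 5 features of EXO70A1, 3 of EXO84B, 6 of SEC8, 3 of SEC5A, 1 of SEC3A and 1 of SEC6. These are 19 of the 268 features of the 9 members with a value there (7.09%), beside 6.48% of all features in the authors' deposited table. They are not all the junctions called here. The SEC5A features there were J033, J036 and J037, without N043, and those of SEC8 held J047 and not SEC8 J039. For xct-2 the authors' deposited table held 2 features of SEC3A and 1 of SEC10, with 1.03% of all features passing, and for xct-1 it held 1 of SEC3A, with 0.4%.

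**Figure D4:**
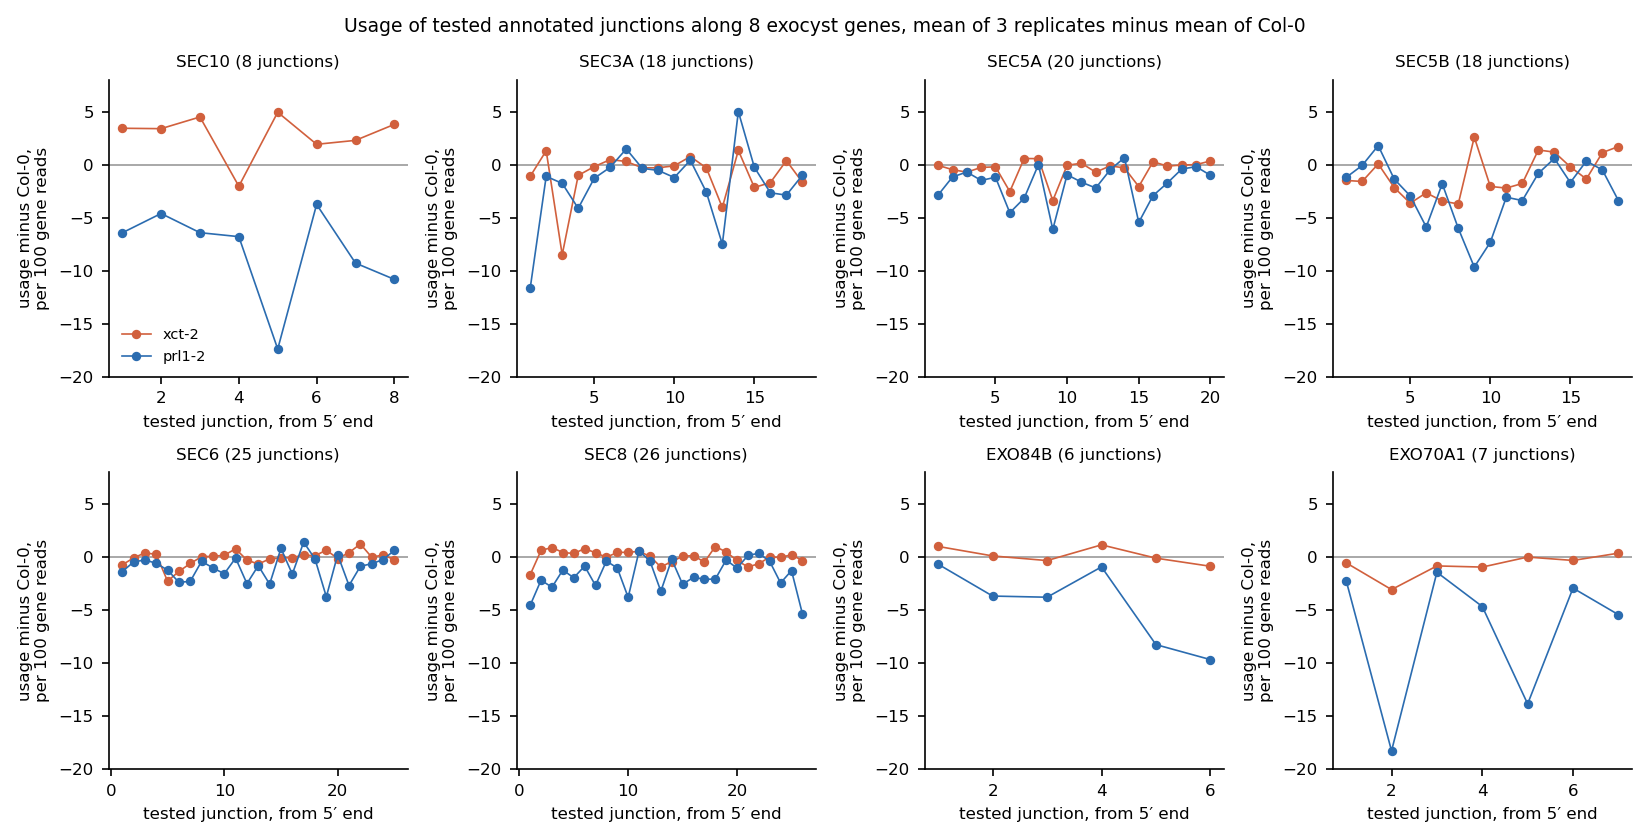
Mean usage minus the Col-0 mean, in reads per 100 gene reads, for the tested annotated junctions of 8 exocyst genes from the 5′ to the 3′ end, for xct-2 and prl1-2 (means of 3 replicates). The prl1-2 line dips at single introns, to −18.3 at EXO70A1 J016 and −9.67 at EXO84B J011, and the largest xct-2 dip is −8.48, at SEC3A J031.

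Among exon bins, 119 of the members' bins were tested, or 91 without SEC10. E003 of EXO70A1 in prl1-2 was the single call, beside 0.0934% of 31056 bins. No member bin passed in xct-2 against Col-0 (0.0483% of all bins) or in xct-2 XCT::XCT against xct-2 (0.0708%). The same held for xct-1, xct-2 XCT::XCT and xct-1 XCT::SpXAP5 when set against Col-0, and for the last of these when set against its mutant xct-1; in each, 0% of all bins passed.

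In the xct mutants the calls of the set lay at alternative 3′ splice sites. In xct-2 against Col-0, 3 of 154 member junctions passed (1.95%), beside 2.52% of all junctions, and 9 had an unadjusted p under 0.05. These were SEC3A N054 and SEC10 N059, both unannotated and higher, and SEC3A J031, lower. In xct-1 against Col-0, SEC3A N054 alone passed, 1 of 154, beside 1.08% of all junctions.

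SEC3A N054 (chr1:17458458-17458631) shares the 5′ site of the annotated J031 (chr1:17458458-17458614) and ends 17 bases further downstream. It stood at 0, 0.855 and 1.14 per 100 gene reads in Col-0, at 8.13, 10.1 and 6.90 in xct-1 and at 7.89, 13.0 and 8.77 in xct-2. In prl1-2 it stood at 1.14, 0 and 0.870, within the range of Col-0. Both xct mutants lay above every Col-0 and every prl1-2 library. The read counts are small, 0 to 2 a library in Col-0 and 8 to 11 in the xct mutants. From 0.66 ± 0.59 in Col-0, N054 rose to 9.90 ± 2.75 in xct-2 (log2 change 3.86, SE 0.64, adjusted p = 0.000376, edgeR) and to 8.37 ± 1.61 in xct-1 (log2 change 3.63, SE 0.64, adjusted p = 0.00161). The xct-2 call passed under every alternative run on it, and the xct-1 call was lost with only the libraries of the 2 groups (adjusted p = 0.079).

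The annotated J031 moved the other way, from 98.2, 95.7 and 96 in Col-0 to 88.6, 85.5 and 90.4 in xct-2. The fall from 96.6 ± 1.33 to 88.2 ± 2.45 passed the test (log2 change −1.93, SE 0.52, adjusted p = 0.0462, edgeR) but was lost whenever any of the 6 libraries was left out, with adjusted p from 0.0606 to 0.277, and with the replicate number as a block (adjusted p = 0.0595). In xct-1 J031 stood at 89.4 ± 1.77 (adjusted p = 0.149). The sum of both junctions came to 98.1 in xct-2, 97.7 in xct-1, 97.3 in Col-0 and 95.6 in prl1-2, and the xct mutants and Col-0 thus lay within 1 read per 100 of each other.

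SEC10 N059 (chr5:4006037-4006131) ends 8 bases downstream of the 3′ site of the annotated J043. It stood at 2.42, 1.3 and 1.93 per 100 gene reads in Col-0, at 3.58, 2.35 and 2.51 in xct-1 and at 5.76, 11.6 and 5.31 in xct-2. The xct-2 libraries lay above all others, and xct-1 overlapped Col-0. The rise from 1.88 ± 0.56 to 7.57 ± 3.53 in xct-2 had a log2 change of 1.94 (SE 0.42, adjusted p = 0.00639, edgeR), and without xct-2 replicate 2 the adjusted p was 0.0611. In SEC8, N066 (chr3:3228430-3228759) ends 6 bases downstream of the 3′ site of J053 and stood at 0.881, 0.852 and 2.13 in Col-0 and at 3.41, 5.46 and 3.76 in xct-2. The groups did not overlap, but the difference was not called (1.29 ± 0.73 and 4.21 ± 1.10, adjusted p = 0.0554).

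Of the 25 unannotated junctions of the members, 6 in 4 genes keep an annotated 5′ site and end 4 to 17 bases downstream of the annotated 3′ site. Of these, 6 of 6 had a mean usage above Col-0 in xct-2, with a median difference of 2.84 reads per 100, and 5 of 6 had in xct-1, with 0.68. The line xct-1 XCT::SpXAP5 was above Col-0 for 5 of 6, with 1.27, xct-2 XCT::XCT for 3, with 0.03, and prl1-2 for 3, with −0.17. SEC3A N054 and SEC10 N059, already called higher in xct-2, are among the 6. Shares over all such junctions of the series were not computed, so these counts describe the members and show nothing particular to them. The 12 unannotated junctions in 3 genes whose 5′ site lies within 4 bases of an annotated one were above Col-0 in 6 of 12 in xct-2, with a median difference of 0.04. Among these was SEC8 N062, the most used unannotated junction of the set, at 14.7 in Col-0, 14 in xct-2 and 12.2 in prl1-2. J042, the annotated junction it competes with, stood at 78.5 ± 0.76 in Col-0, 78.6 ± 0.08 in xct-2 and 78.2 ± 2.33 in prl1-2. SEC3A J045 and J046, annotated alternatives with 5′ sites 3 bases apart, shared the reads of their intron as 79.0 ± 2.58 and 16.6 ± 3.01 in Col-0, 75.0 ± 2.69 and 18 ± 1.91 in xct-2 and 71.6 ± 1.10 and 21.6 ± 2.54 in prl1-2, without a call.

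The lines with transgenes were compared with Col-0 and with their own mutants. In xct-2 XCT::XCT against Col-0 no member junction passed, and none had an unadjusted p under 0.05, 0 of 154 beside 0.00198% of all junctions. SEC3A N054 nevertheless lay above every Col-0 library in all 3 xct-2 XCT::XCT libraries, without a call (log2 change 1.48, SE 0.77). Against xct-2, 2 of 154 passed, both lower, beside 2.63% of all. SEC3A N054 was 2.34, 1.55 and 2.07 in xct-2 XCT::XCT, or 1.99 ± 0.40, a log2 change of −2.38 against xct-2 (SE 0.54, adjusted p = 0.0108, edgeR). It was lost without xct-2 replicate 2, without xct-2 XCT::XCT replicate 2 and with DESeq2. SEC10 N059 was 1.53, 1.44 and 1.67, or 1.55 ± 0.12, a log2 change of −2.27 (SE 0.42, adjusted p = 0.00109), and passed under every alternative run on it. The comparisons of xct-2 with Col-0 and of xct-2 XCT::XCT with xct-2 share the xct-2 libraries.

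In xct-1 XCT::SpXAP5, SEC3A N054 stood at 8.20, 8.76 and 7.55, at the level of xct-1. Against Col-0 it was the single call, 1 of 154 beside 1.14% of all junctions (8.17 ± 0.61, log2 change 3.60, SE 0.64, adjusted p = 0.0016, edgeR). Against xct-1, 0 of 154 member junctions passed, beside 0% of all, and 3 had an unadjusted p under 0.05. SEC10 N059 was 4.30, 4.57 and 3.56 there, above all 3 Col-0 libraries without a call (adjusted p = 0.394).

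**Figure D5:**
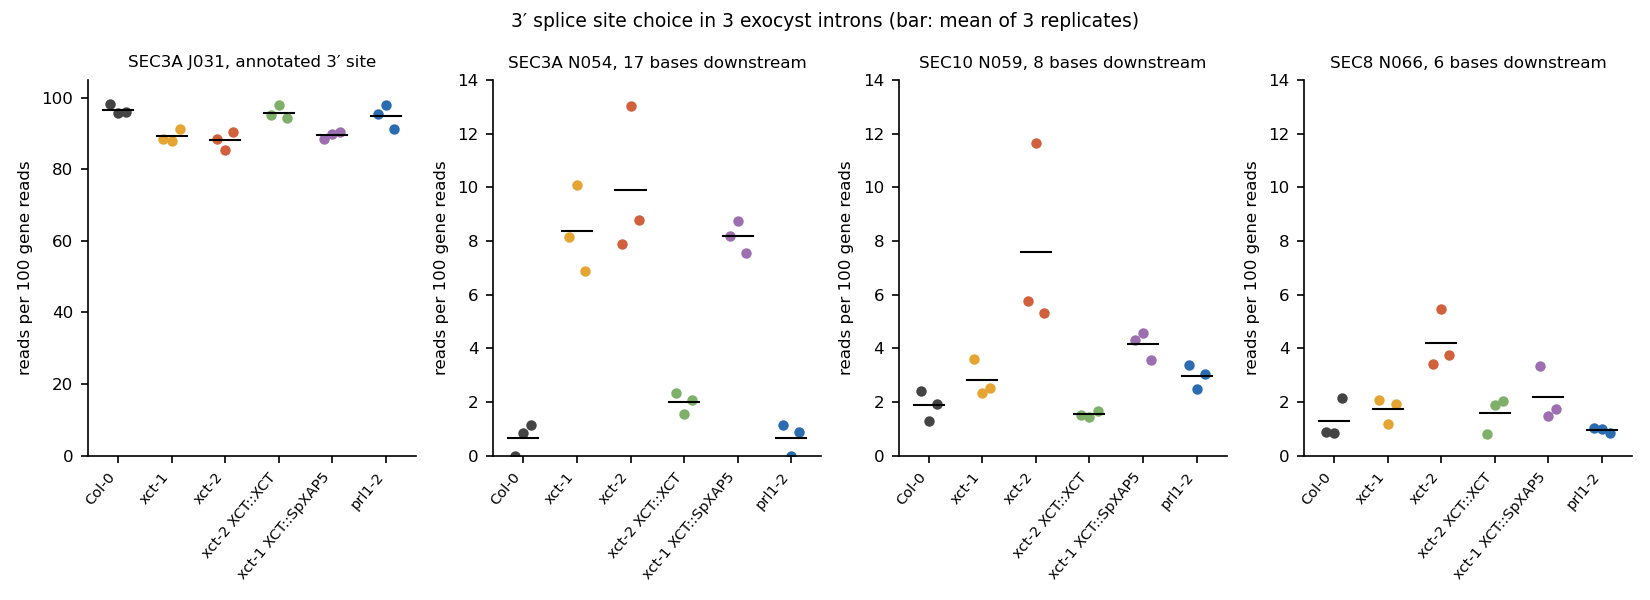
Usage of SEC3A J031 and of the unannotated downstream 3′ sites SEC3A N054, SEC10 N059 and SEC8 N066 in reads per 100 gene reads (axes from 0), with each point a library and the bar the mean of 3 replicates. N054 is 6.90 or more in xct-1, xct-2 and xct-1 XCT::SpXAP5 and 2.34 or less in the other genotypes, while N059 and N066 are highest in xct-2.

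The junctions whose usage over the 18 libraries was most like that of SEC10 J039, among 13172 candidates, lay in AT5G14210 (J012, Pearson's r 0.971), AT1G27850 (J008, 0.964), NPY5 (J009, 0.961), PKDM7D (J025, 0.961) and PIL6 (J016, 0.961). PIL6 encodes a phytochrome-interacting transcription factor and PKDM7D a histone demethylase. Their usage in Col-0 and prl1-2 was 102 and 87.7 for AT5G14210, 91.3 and 71.7 for NPY5, 96.3 and 86.6 for PKDM7D and 87.6 and 51.6 for PIL6. These genes were found by the likeness itself, so their levels are a description. In gene level, MBR1 (r 0.975), PHO1 (0.971), SS4 (0.968), IBM1 (0.965) and AT5G56730 (0.963) followed SEC10 most closely among 3387 genes. All genes of a library share any difference in its read length.

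Of 25 other exocyst genes, mostly EXO70 paralogs, 5 had tested junctions (6 in all). EXO70H7 at 156 CPM and EXO70B1 at 149 were read more than EXO70A1 at 115, on a scale not divided by length, and EXO70A3, EXO70H3, EXO70H5 and EXO70H6 had 0 reads. The single called junction was J010 of AT1G10180 (chr1:3339236-3339321), whose usage fell from 103 ± 4.32 in Col-0 to 73.3 ± 13.1 in xct-2 (log2 change −5.09, SE 1.00, adjusted p = 0.00302, edgeR), to 80.2 ± 8.28 in xct-1 (adjusted p = 0.0214) and to 82.7 ± 5.32 in xct-1 XCT::SpXAP5 (adjusted p = 0.0405). In xct-2 XCT::XCT it stood at 101 ± 0.91, higher than in xct-2 (adjusted p = 0.000284). In prl1-2, 0 of the 6 passed.

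Subunits of the COG, GARP and TRAPPII complexes tether vesicles at the Golgi and endosomes. Of their 178 tested junctions in 14 genes, 35 were lower and 1 higher in prl1-2, in 12 of the genes (20.2%, beside 9.74% of all junctions). How many of the 178 reached the minimum of reads only through prl1-2 was not checked, so this share is a description. In xct-2, 2 were higher and 3 lower (2.81%, beside 2.52% of all). HIT1, the GARP subunit VPS53, carried 4 of these and AT4G24840 the other. In HIT1, J040 fell from 91.3 ± 2.69 in Col-0 to 54.3 ± 4.99 in xct-2 (adjusted p = 7.11e-06, edgeR) while the unannotated N053 rose from 6.28 ± 0.77 to 44.4 ± 4.70 (adjusted p = 1.68e-06). Of 12 partners at the plasma membrane (SNAREs, ROP GTPases and ICR1), 11 had rows and 5 had tested junctions, 24 in all. KEU, which encodes KEULE, held 2 calls in prl1-2, J029 and J032, both lower (8.33% of the 24, beside 9.74% of all), and 1 in xct-2 (4.17%, beside 2.52%). The latter, J026, fell from 98.5 ± 1.86 to 90.3 ± 1.60 (adjusted p = 0.0347). No gene of these lists was called in gene level in any of the 7 comparisons.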

How the data were processed

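Gene, exon bin and splice junction counts were deposited by the authors per library, as raw counts of long reads per feature (units per the file headers and values). The submitters' processing notes name minimap2 2.17 and TAIR10. The authors also deposited 5 tables of their own comparisons, with p-values and log2 fold changes per the file headers. Only adjusted p-values were taken from these.

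Usage is the junction or bin count per 100 gene counts, and coordinates are 1-based in TAIR10. Junctions and bins were tested with edgeR 4.0.16 (quasi-likelihood, R 4.3.3) on pairs of counts, feature reads and remaining gene reads, with a term per library and usage per genotype. All 18 libraries shared the spread, for single-gene loci with at least 20 reads on each side over the libraries. Where a junction held more reads than its gene, the remainder was set to 0, which holds for most of SEC10. Gene counts were scaled by TMM, after edgeR's filter on low counts, and were otherwise used as CPM. P-values were adjusted by Benjamini-Hochberg over all features of a kind in each of 7 comparisons, with a threshold of 0.05. The main junction and gene fits were tested on simulated data, for junctions with more reads on each side than the minimum used here. The exon bin fit and the alternatives were not simulated. With 3 libraries against 3 an exact permutation test cannot go below p = 0.1, so none was used. Libraries of a genotype differed by more than sampling noise, so each was counted. Loci that join several genes, 1.43% of gene reads, were left out of the tests.

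The members and lists were chosen with earlier results of these data known. Named junctions and bins are those called in any comparison, up to 5 per member and comparison, the SEC10 intron that started the set, and unannotated junctions with at least 20 reads. For a member with none of these, the junction of lowest p was named. SEC6 J047, SEC5B J029 and J030, SEC8 J042, and SEC3A J045 and J046 were added after their values were seen. Alternatives were DESeq2 1.42.0, minimums of 10 and 50 reads, no filter on low gene counts, the gene count as an offset, flanking exon bins as denominator, the libraries of 2 groups only, a replicate block with and without junction reads per gene read, and each library left out in turn. Gene symbols matched for all 10 members.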

Additional observations from a re-analysis of the deposited data

How the results depend on the processing

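The called junctions, without those of SEC10 in prl1-2, and the called bin kept their direction in every alternative run on them. Named junctions without a call were not followed through the alternatives. In prl1-2, 17 member junctions passed as reported. The count was 21 with the replicate block and junction reads per gene read, 43 of 101 with flanking exon bins as denominator, 9 with only the libraries of the 2 groups, 6 with DESeq2 and 0 with the gene count as an offset. Over all junctions the block and covariate called 15.5%, DESeq2 2.74%, flanking bins 34.9% and the 2 groups alone 5.77%. Leaving out a library gave 7 to 16 calls, with 8 without Col-0 replicate 1, 9 without prl1-2 replicate 1 and 7 without prl1-2 replicate 3. EXO70A1 J022, EXO84B J011 and J012, and SEC8 J041 and J044 were the 5 kept both by DESeq2 and without each library. Among them, EXO70A1 J022 and EXO84B J011 and J012 reached the minimum of reads on each side only through their prl1-2 reads. Being kept therefore does not support a difference for EXO70A1 J022 or for EXO84B J011 and J012.

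Shares in brackets are over all features tested. In xct-2, 3 junctions passed, 1 with only the 2 groups (1.58%), and 1 to 3 with a library left out, with 1 without xct-2 replicate 2. In xct-1, 1 passed, 2 with the block and covariate (1.56%), 0 with the 2 groups (0.594%) and 1 without each library. In xct-1 XCT::SpXAP5 against Col-0, 1 passed, 2 with the block and covariate (1.67%), and 1 to 3 with a library left out. In xct-2 XCT::XCT against xct-2, 2 passed, 5 with the block and covariate (3.94%), 1 with DESeq2 (2.03%), and 1 to 2 with a library left out. For exon bins in prl1-2 the count was 1, then 2 with the block and covariate (2.53%), 0 with DESeq2 (0.0741%), 0 with a minimum of 10 reads, 0 with the 2 groups and 0 to 0 with a library left out. For genes in xct-2 it was 0, and 1 with the block and covariate (7.31%). The cause of these shifts was not tested. SEC10 J039 differed by −17.4 in prl1-2 per 100 gene reads and by −12.4 per 100 reads of its most-read junction, a measure added after the data were seen.

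Same-numbered libraries deviated together in some pairs and apart in others (correlations from −0.758 to 0.935), so the numbers do not pair them. With the replicate number alone as a block, 17 junctions passed in prl1-2 and 2 in xct-2, where SEC3A J031 was lost, and no other call changed. Junctions with a handful of reads per library, such as SEC3A N054, and members with few gene reads, such as SEC15A, limit what could be detected.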
